A study of Mus musculus with 12 samples.

Results

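The 45 genes described here drive or mark cell division: 19 act in DNA replication during S phase and 26 in mitosis. They were taken as a list of gene symbols, and each gene was represented by its probe set, the group of probes that reads 1 transcript, on a whole-transcript mouse array. Of the 45, 44 had a probe set annotated to that symbol alone, out of 19936 such genes on the array. The cyclin gene Ccnb1 had none, and Ttk, a spindle checkpoint kinase gene, lay above its array's 25th percentile on too few arrays to be tested. The 43 genes tested, 19 for replication and 24 for mitosis, stand among 16480 genes tested in all.

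RNA of the whole kidney was measured in 12 mice aged 6 months, with 1 array per mouse and 3 mice in each of 4 groups. OVE-D6 mice were diabetic and homozygous for a deletion of D6, OVE mice were diabetic with D6 intact, D6 mice were non-diabetic with the deletion, and FVB mice were non-diabetic with D6 intact. D6, encoded by Ackr2, is a receptor that takes up inflammatory CC chemokines and clears them without signalling. All 4 groups share the FVB background, into which the deletion had been bred from C57BL/6 mice over at least 10 generations, so D6 and OVE-D6 mice may also carry C57BL/6 sequence around the deleted gene. In the OVE line, a calmodulin transgene expressed in the insulin-producing beta cells causes diabetes early in life. The labels do not give the sex or litter of the mice, and the number of arrays limits the precision of every value.

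Cells commit to division when cyclin-dependent kinases release E2F transcription factors from pocket proteins, and E2F then switches on the replication genes. Mcm proteins are loaded on origins of replication and unwind the DNA, while the mitosis genes come on later, largely through promoters that carry a CHR element and CCAAT boxes. Most cells of the adult kidney are quiescent, and tubule cells re-enter the cycle after injury. In an RNA sample of the whole organ, a larger share of dividing cells and more RNA per dividing cell cannot be told apart.

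The promoters below belong to the replication genes Mcm2 and Mcm6 and the mitosis genes Anln and Kif11, which had the smallest p-values of their class between OVE and FVB kidneys among genes with a listed promoter. They were picked by p-value and not by the elements they carry. The Mcm2 window had no E2F match and the Anln window no CCAAT box. Each sequence is the RefSeq window of assembly GRCm38.p6 from 250 bases before to 50 bases after the gene's start, written on the gene's own strand. Mcm2 lies at chr6:88898731-88899030 on the minus strand, Mcm6 at chr1:128359656-128359955 on the minus strand, Anln at chr9:22389157-22389456 on the minus strand and Kif11 at chr19:37376132-37376431 on the plus strand. Capitals mark every match on either strand to the E2F motifs TTTGGCGC, TTTCCCGC and TTTCGCGC, the CHR motifs TTTGAA and TTCGAA, and the CCAAT box.
Mcm2: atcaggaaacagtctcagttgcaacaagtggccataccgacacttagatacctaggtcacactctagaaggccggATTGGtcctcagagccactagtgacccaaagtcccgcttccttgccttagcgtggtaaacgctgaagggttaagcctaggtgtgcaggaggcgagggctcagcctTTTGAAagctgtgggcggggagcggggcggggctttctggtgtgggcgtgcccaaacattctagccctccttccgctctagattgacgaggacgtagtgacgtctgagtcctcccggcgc
Mcm6: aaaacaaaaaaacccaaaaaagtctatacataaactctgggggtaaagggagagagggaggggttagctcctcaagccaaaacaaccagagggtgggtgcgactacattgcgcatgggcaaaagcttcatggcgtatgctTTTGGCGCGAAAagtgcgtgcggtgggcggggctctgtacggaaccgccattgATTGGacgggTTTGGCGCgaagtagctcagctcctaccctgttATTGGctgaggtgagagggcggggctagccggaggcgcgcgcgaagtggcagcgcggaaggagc
Anln: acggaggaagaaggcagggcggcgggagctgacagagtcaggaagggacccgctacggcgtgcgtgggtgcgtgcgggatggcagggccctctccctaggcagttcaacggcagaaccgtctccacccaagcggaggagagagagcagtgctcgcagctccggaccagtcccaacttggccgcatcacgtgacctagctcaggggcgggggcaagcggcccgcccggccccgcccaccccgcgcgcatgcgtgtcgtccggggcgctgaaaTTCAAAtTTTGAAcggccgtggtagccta
Kif11: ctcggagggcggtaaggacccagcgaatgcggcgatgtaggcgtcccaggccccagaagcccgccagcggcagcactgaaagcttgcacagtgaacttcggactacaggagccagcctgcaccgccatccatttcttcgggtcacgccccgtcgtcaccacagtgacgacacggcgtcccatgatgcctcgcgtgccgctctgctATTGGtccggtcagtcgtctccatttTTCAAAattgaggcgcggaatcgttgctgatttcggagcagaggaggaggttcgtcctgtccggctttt

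The Mcm6 window held 3 E2F matches, of which the first 2 overlap, and 2 CCAAT boxes. In the Kif11 window a CHR match began 19 bases before the start and a CCAAT box 45 bases before it. The Anln window had 2 CHR matches, which began 22 and 29 bases after the start, and the Mcm2 window had a CHR match 70 bases before the start and a CCAAT box 175 bases before it.

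Promoters were listed for 40 of the 45 genes, in 44 windows, since some genes have more than 1 start. An E2F motif was present in 7 of 19 replication windows (36.8%) and in 2 of 25 mitosis windows (8.0%), against 606 of all 32851 windows (1.84%). A CHR motif was present in 3 of 19 replication windows (15.8%) and in 20 of 25 mitosis windows (80.0%), against 19.2% of all windows. CCAAT boxes were found in 63.2% of replication windows and 84.0% of mitosis windows, against 37.4% of all. A CHR motif together with a CCAAT box stood in 19 of the 25 mitosis windows, against 7.52% of all windows. Cdk1 and Ncapg were the mitosis genes with an E2F motif, and Cdc45, Mcm2 and Mcm7 the replication genes with a CHR motif. These matches are descriptions of letters in a window and are not measured binding sites.

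Some features of the 12 arrays bear on every result below. Array medians of the log2 values lay between 6.84 and 6.93. The kidney markers Slc34a1 (proximal tubule), Umod (thick limb), Aqp2 (collecting duct) and Nphs1 (podocyte) had their highest group means at 13.77, 13.14, 10.64 and 8.43. Ackr2 read between 6.74 and 7.04 on all arrays with no gap between genotypes, and whether its probe set lies in the deleted stretch is not given in the sources used here, so it does not check the genotype labels. On the first principal component of all tested genes, with 35.9% of the variance, OVE replicate 3 lay at 6.9, apart from OVE replicates 1 and 2 at 27.0 and 29.4.

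Many of the division genes were dim. As a rough guide to background, 1027 olfactory receptor genes, expressed mainly in the nose, had a 95th percentile of 5.93 in their mean log2 values. The mean fell under that level for 6 of the 44 measured genes in OVE kidneys, against 18 in FVB kidneys, and for 6 genes it did so in all 4 groups. The folds of such genes are inexact. The filter on low values was passed on all 12 arrays by 31 of the 43 tested genes. Bub1, Cenpe, Kif11, Ncapg, Prc1 and Anln were above it on no FVB array, so they could enter the test only through other groups.

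**Figure D1:**
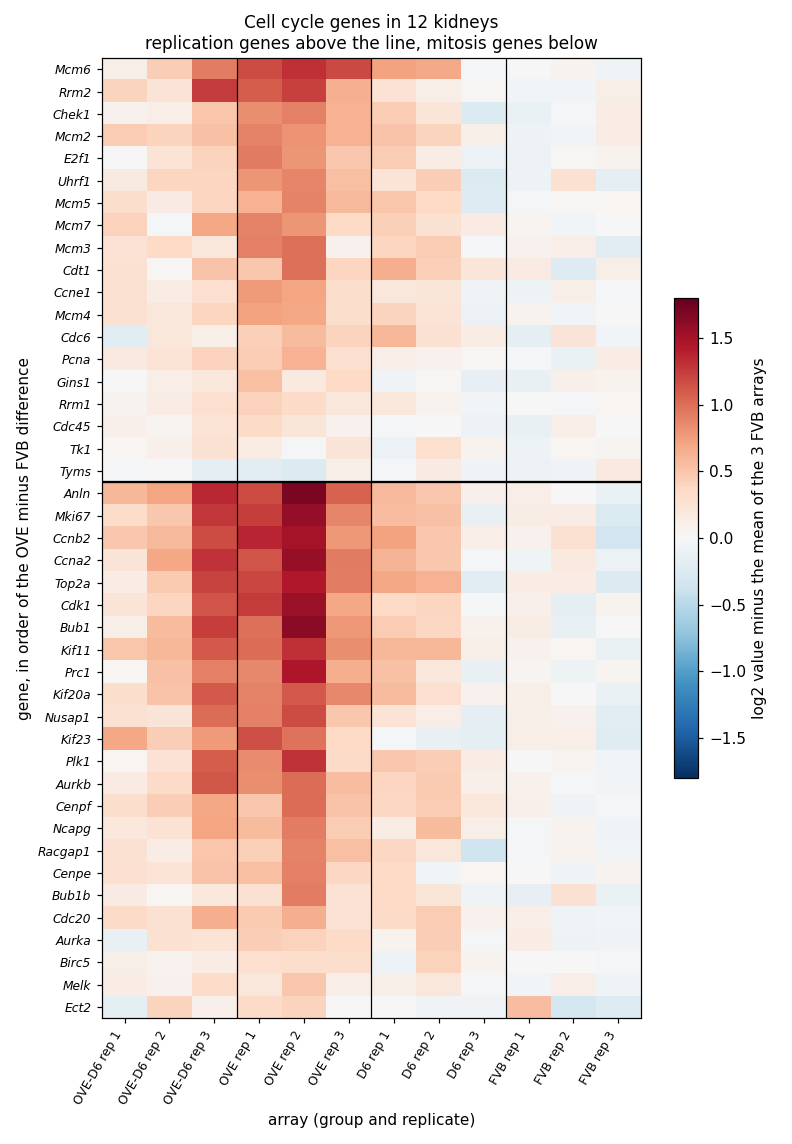
Log2 value of the 43 tested genes on each of the 12 arrays, minus the mean of the 3 FVB arrays, with genes ordered within replication and mitosis by the OVE minus FVB difference. The OVE columns are the reddest, OVE-D6 replicate 3 stands out from the other OVE-D6 arrays, and D6 replicate 3 is close to the FVB arrays.

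The first comparison asked how these genes differed with diabetes in kidneys with D6 intact. Replication and mitosis genes rose together: 28 of 43 were higher in OVE than in FVB kidneys at an adjusted p under 0.05 (limma over all tested genes, Benjamini-Hochberg), where 4.9% of all tested genes were called higher. None of the 43 was called lower by limma, where 2.38% of all genes were. None was lower at an unadjusted p under 0.05 either, where 11.2% of all genes were. The median log2 difference was 0.68 over the 43 genes, against -0.02 over all 16480. By class, 11 of 19 replication genes rose, with a median of 0.61, and 17 of 24 mitosis genes rose, with a median of 0.83. The risen mitosis genes include Bub1, Cenpe, Kif11, Ncapg, Prc1 and Anln, which were above the filter on no FVB array. Ncapg was above it on 3 OVE arrays, 1 OVE-D6 array and 1 D6 array, so it was tested only through the OVE arrays. With no filter on low values, 27 of 44 genes rose, as did 729 of all 19936 genes. The OVE and FVB arrays did not overlap for 36 of the 43 genes, all higher in OVE, while 13.6% of all genes were separated in that direction.

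Subunits of the helicase of the replication fork had the smallest p-values of the replication class. Mcm2, a subunit of that helicase, read 8.57, 8.49 and 8.30 on the OVE arrays, against 7.59, 7.63 and 7.82 on the FVB arrays. Mcm6, another subunit, read 7.10, 7.25 and 7.12 on the OVE arrays, against 5.94, 5.99 and 5.85 on the FVB arrays. For both genes every OVE array stood above every FVB array, and the 3 OVE values of Mcm6 had an SD of 0.08. Mcm6 rose by 1.23 ± 0.20 on the log2 scale (SE, n = 3 per group, limma adjusted p = 0.00636). Mcm2 averaged 8.45 ± 0.14 in OVE and 7.68 ± 0.12 in FVB kidneys (SD, n = 3 each) and had the smallest adjusted p of the 43 genes, 0.00342. Mcm4, Mcm5 and Mcm7 rose as well, by 0.59, 0.70 and 0.68, whereas Mcm3 had a difference of 0.66 and did not pass. Its OVE arrays were uneven at 7.03, 7.11 and 6.20, and the third of these fell among the FVB values of 6.20, 6.24 and 5.92.

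Regulators of entry into S phase rose too. E2f1, the transcription factor that switches on replication genes, read 7.54, 7.39 and 7.08 on the OVE arrays, against 6.50, 6.62 and 6.67 on the FVB arrays. Ccne1, the cyclin of the G1 to S transition, read 7.10, 7.05 and 6.66 on the OVE arrays, against 6.25, 6.44 and 6.31 on the FVB arrays. Neither gene had overlapping groups, and in both OVE replicate 3 was the lowest OVE array. The differences were 0.74 for E2f1 and 0.60 for Ccne1. Chek1, the checkpoint kinase that guards stalled forks, and Uhrf1, which carries DNA methylation through replication, rose by 0.79 and 0.73.

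Genes that supply nucleotides and the sliding clamp were mixed. Pcna, the clamp that holds DNA polymerase on its template, read 10.44, 10.61 and 10.27 on the OVE arrays, against 9.95, 9.86 and 10.12 on the FVB arrays, without overlap. Its difference of 0.46 passed the test, and a second Pcna probe set differed by 0.63. Rrm2, the S phase subunit of ribonucleotide reductase, rose by 0.98, but its partner Rrm1 had a difference of 0.32 that did not pass. Tyms, the thymidylate synthase gene, read 8.51, 8.47 and 8.82 on the OVE arrays and 8.60, 8.65 and 8.88 on the FVB arrays. These groups overlapped, and Tyms was the sole member with a negative estimate, -0.11. Tk1, the thymidine kinase of dividing cells, differed by 0.11 on the probe set used and by 0.06 on the second. The loading and firing factors Cdt1, Cdc6, Gins1 and Cdc45 had differences of 0.61, 0.46, 0.35 and 0.22 and did not pass.

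Among the mitosis genes the largest change was in Anln, which encodes anillin, a scaffold of the contractile ring. Anln read 6.22, 6.75 and 6.11 on the OVE arrays, against 5.17, 5.05 and 4.93 on the FVB arrays. The groups were separated by almost a whole log2 unit, with the FVB arrays near background. Anln rose by 1.31 ± 0.21 (SE, adjusted p = 0.00527, limma). Kif11, the motor that pushes spindle poles apart, read 6.24, 6.54 and 6.06 on the OVE arrays, against 5.31, 5.26 and 5.11 on the FVB arrays. Kif20a, a motor of the central spindle, read 6.76, 6.97 and 6.74 on the OVE arrays, against 5.98, 5.87 and 5.75 on the FVB arrays. Both were separated without overlap, and they rose by 1.05 and 0.95.

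The kinase and cyclins that drive mitosis rose by similar amounts. Cdk1, the mitotic kinase, read 7.21, 7.51 and 6.64 on the OVE arrays, against 6.04, 5.78 and 6.02 on the FVB arrays. Ccna2, the cyclin of S and G2 phase, read 7.91, 8.35 and 7.71 on the OVE arrays, against 6.70, 6.96 and 6.68 on the FVB arrays. Ccnb2, a mitotic cyclin, read 8.09, 8.22 and 7.50 on the OVE arrays, against 6.80, 6.99 and 6.38 on the FVB arrays. In all 3 genes OVE replicate 2 was the highest array and OVE replicate 3 the lowest of its group, yet no FVB array reached it. Cdk1 rose by 1.17 ± 0.24 (SE, adjusted p = 0.0149), Ccna2 by 1.20 ± 0.24 (adjusted p = 0.0146) and Ccnb2 by 1.22 ± 0.24 (adjusted p = 0.0118), all by limma.

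Mki67, the antigen used to count cycling cells in tissue, read 7.66, 7.99 and 7.29 on the OVE arrays, against 6.54, 6.54 and 6.15 on the FVB arrays. Top2a, the topoisomerase that untangles sister chromatids, read 6.80, 7.04 and 6.52 on the OVE arrays, against 5.73, 5.74 and 5.35 on the FVB arrays. Neither had overlapping groups. By limma, Mki67 rose by 1.23 ± 0.26 (SE, adjusted p = 0.0159), Top2a by 1.18 ± 0.28 (adjusted p = 0.0251) and Bub1, a spindle checkpoint kinase gene, by 1.14 ± 0.26 (adjusted p = 0.021). A second Top2a probe set had a mean of 3.54 over all arrays, far under the background level, and differed by 0.08.

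The spindle and cytokinesis genes Prc1, Nusap1, Kif23, Racgap1, Cenpf, Cenpe and Ncapg and the kinase gene Aurkb rose by 0.61 to 0.99. Cenpe and Ncapg lay under the background level of 5.93 in all 4 groups, with OVE means of 5.68 and 5.61. Plk1, the polo-like kinase gene, had a difference of 0.83 that did not pass, with OVE arrays at 6.78, 7.23 and 6.27 and FVB arrays at 5.93, 5.98 and 5.88. Bub1b, Cdc20, Aurka, Birc5, Melk and Ect2 had differences of 0.25 to 0.49 and did not pass. Cdc20, Aurka, a centrosome kinase gene, and Birc5, a subunit of the Aurkb complex, nevertheless had separated groups. Ect2, which activates the contractile ring, overlapped widely, with FVB replicate 1 at 8.61 above all 3 OVE arrays at 8.40, 8.46 and 8.07.

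**Figure D2:**
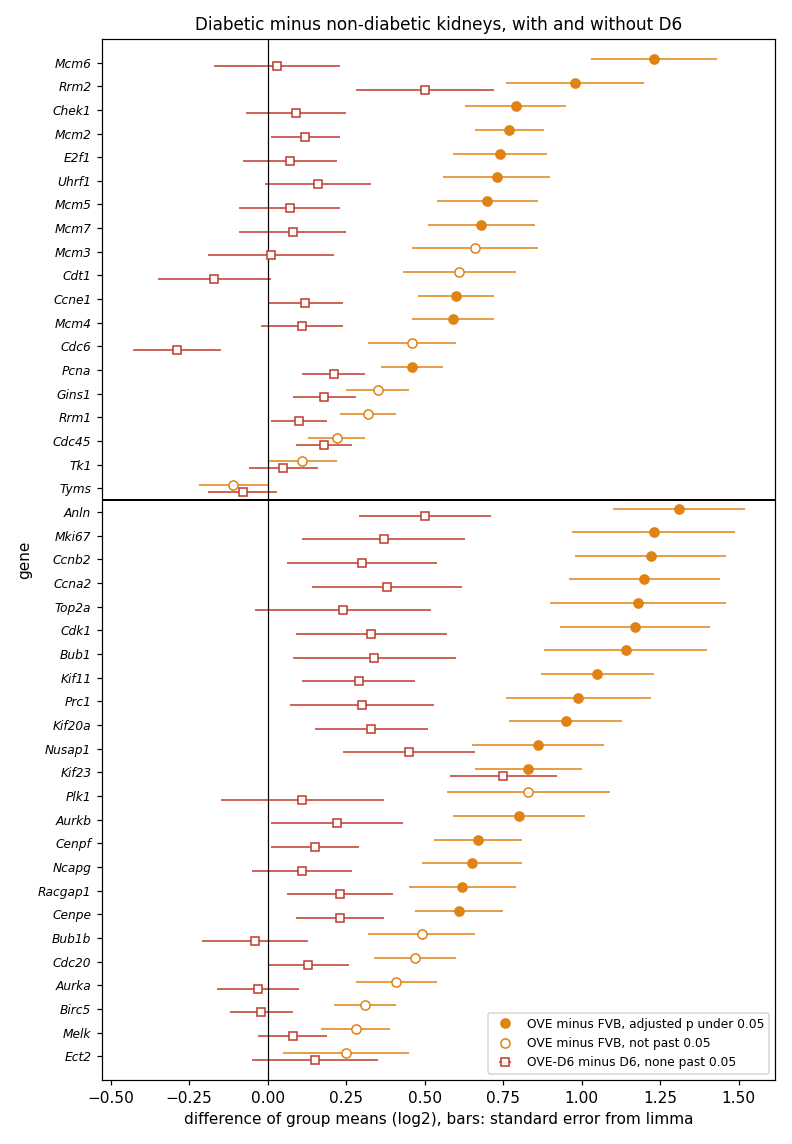
Difference of group means on the log2 scale (x axis) for each of the 43 genes (y axis), with the standard error from limma, for OVE minus FVB (circles, filled where the adjusted p is under 0.05) and OVE-D6 minus D6 (squares). The OVE minus FVB points run from -0.11 for Tyms to 1.31 for Anln, and the OVE-D6 minus D6 points from -0.29 for Cdc6 to 0.75 for Kif23.

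The number of calls changed with the arrays fitted, for these genes and for all genes. Without OVE replicate 1, 2 or 3 the number that rose was 16, 6 and 33, and without FVB replicate 1, 2 or 3 it was 14, 12 and 9. Over all genes, 495, 268 and 1247 were called higher without OVE replicate 1, 2 or 3, against 808 with all arrays. Without FVB replicate 1, 2 or 3 the count over all genes was 452, 347 and 309. Mcm2, Mcm6, Anln, Kif11 and Kif20a were called under every alternative that tested them. The median difference moved less, between 0.59 and 0.83 over the same 6 fits, and 42 of 43 estimates were positive in each.

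The other genes of division were counted from lists not limited to the 45. Of 50 other replication genes tested, 13 rose in OVE against FVB kidneys and 0 fell, with a median of 0.22. Over all tested genes 4.9% rose and 2.38% fell. The largest changes were in Pole, the catalytic subunit of the leading-strand polymerase (log2 1.33 ± 0.18, SE, limma adjusted p = 0.00239), and Dtl, which directs Cdt1 to destruction (1.20 ± 0.19, adjusted p = 0.00545). Chaf1b and Asf1b, which place histones on new DNA, and E2f8, a repressor of the E2F family, rose by 1.01, 0.94 and 0.79. Of 46 other mitosis genes, 18 rose and 0 fell, with a median of 0.48, and the kinetochore genes Knl1 (0.98) and Cenpk (0.93) and the checkpoint gene Mad2l1 (0.86) were among the largest. Ckap2, a spindle protein gene, and Ncaph, a condensin subunit gene, rose by 0.87 and 0.82. A mean under the background level was found for 8 of the 50 replication genes and 19 of the 46 mitosis genes. Cenpk averaged 5.69 in OVE, 5.19 in OVE-D6, 4.81 in D6 and 4.76 in FVB kidneys. The filter lay at 5.3 to 5.4, so Cenpk may have been tested mainly through the OVE arrays. With no filter, 12 of 52 replication and 20 of 55 mitosis genes rose, as did 729 of all 19936 genes. Leaving out 1 OVE or FVB array at a time gave 6 to 17 risen genes in the replication list and 7 to 25 in the mitosis list, with the highest count of each without OVE replicate 3.

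Upstream of S phase, 4 of 14 G1 cyclins, G1 kinases and pocket protein genes rose and 0 fell, where 4.9% of all tested genes rose. Myc, a growth-promoting transcription factor gene, rose by 1.17 ± 0.19 (SE, limma adjusted p = 0.0063). Cdk6, E2f3 and Cdk2 rose by 0.54, 0.49 and 0.37. Ccnd1, the cyclin that answers growth signals, averaged 11.62 in OVE and 11.33 in FVB kidneys and did not pass. Of 7 CDK inhibitor genes 1 rose, Cdkn2c by 0.37, and the list median was 0.00. Without OVE replicate 2, as without FVB replicate 2, the G1 list had 1 risen gene and the inhibitor list had 0.

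The same question in mice without D6 gave no call. In OVE-D6 against D6 kidneys 0 of 43 genes passed limma's adjusted threshold, where 0.285% of all genes did. At an unadjusted p under 0.05, 3 genes (Kif23, Anln and Rrm2) were higher, where 4.78% of all genes were. At that threshold 0 were lower, where 5.2% of all genes were. The median log2 difference was 0.15, against -0.01 over all genes, with 0.09 for replication and 0.23 for mitosis genes. Estimates were positive for 37 of 43 genes. The groups did not overlap for 4 genes (Kif23, Anln, Pcna and Cdc45), all higher in OVE-D6, while 7.72% of all genes were separated that way. The median was 0.05 without OVE-D6 replicate 3 and 0.03 without D6 replicate 3, and it was 0.23 without OVE-D6 replicate 1.

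Kif23, a motor that builds the midbody at the end of division, stood first among them. Kif23 read 6.96, 6.70 and 7.03 on the OVE-D6 arrays, against 6.23, 6.12 and 6.08 on the D6 arrays. On the OVE arrays it read 7.42, 7.24 and 6.62, against 6.37, 6.38 and 6.04 on the FVB arrays. Both diabetic groups thus lay above both non-diabetic groups on every array. The OVE-D6 minus D6 difference was 0.75 ± 0.17 (SE, n = 3 per group, limma adjusted p = 0.113) and the OVE minus FVB difference 0.83 ± 0.17 (adjusted p = 0.0162). The first of these passed in 3 alternatives, with adjusted p = 0.0439 under array weights, 0.0258 with only these groups fitted and 0.0154 without OVE replicate 3. The next smallest p-values belonged to Anln (0.50 ± 0.21, adjusted p = 0.432), Rrm2 (0.50 ± 0.22, adjusted p = 0.475), Nusap1 (0.45 ± 0.21, adjusted p = 0.522) and Cdc6 (-0.29 ± 0.14, adjusted p = 0.527), none of which passed.

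**Figure D3:**
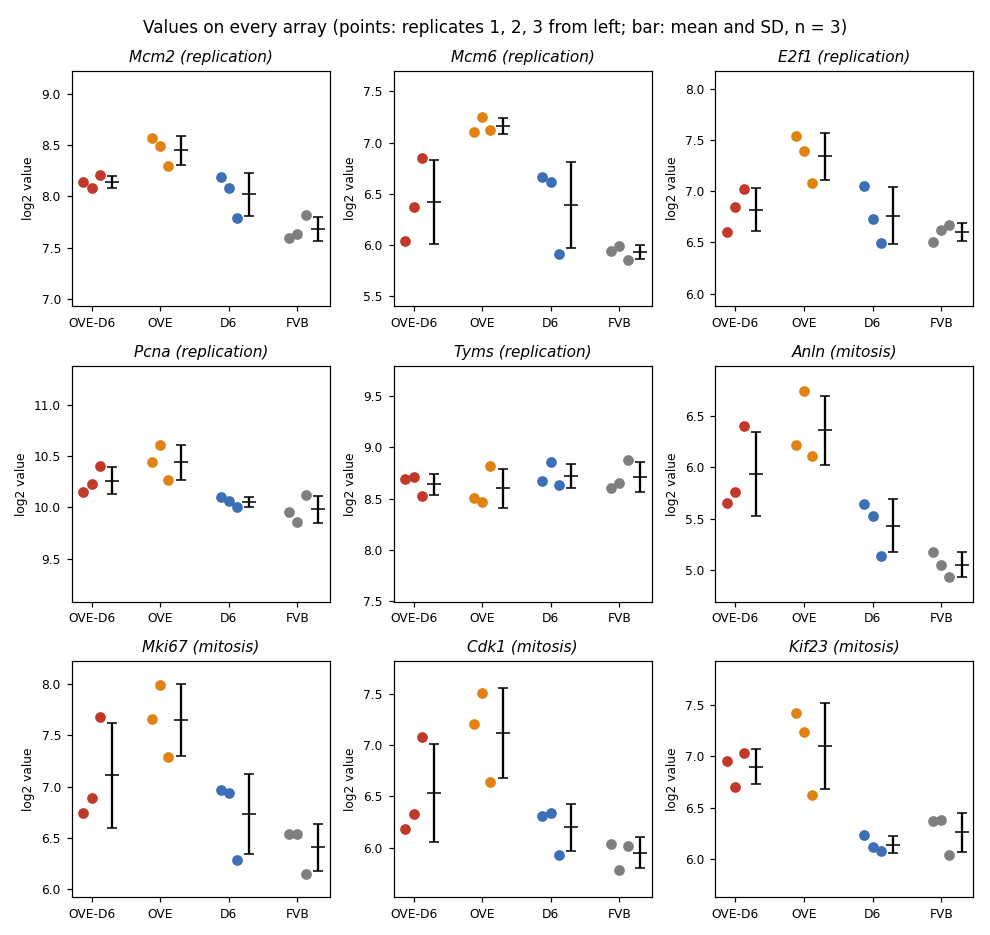
Log2 values (y axis, each panel spans 2.3 units) of 9 genes on every array by group (x axis), with points for replicates 1, 2 and 3 from the left and bars for the mean and SD (n = 3). The OVE-D6 points of Mcm6, Anln, Mki67 and Cdk1 are spread widely with replicate 3 on top, the Kif23 points of both diabetic groups lie above the others, and Tyms shows no separation.

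Whether the diabetes effect itself differed with D6 was tested by the interaction, the OVE-D6 minus D6 difference less the OVE minus FVB difference. No gene of the 43 passed by limma, nor did any of the 16480 genes (0.0%). At an unadjusted p under 0.05, 25 of 43 genes had a negative interaction, 12 for replication and 13 for mitosis, while 6.29% of all genes did. The median was -0.57, against 0.01 over all genes, and 42 of 43 estimates were negative. The smallest p-values were those of Mcm6 (-1.20 ± 0.29, SE, adjusted p = 0.225), Mcm2 (-0.65 ± 0.16, adjusted p = 0.225), Cdc6 (-0.76 ± 0.20, adjusted p = 0.264), Cdt1 (-0.78 ± 0.25, adjusted p = 0.329) and E2f1 (-0.67 ± 0.21, adjusted p = 0.33), none of which passed. Kif23 had an interaction of -0.08. Without OVE replicate 3 the genes Ccne1, Mcm2 and Mcm3 passed, and without any other single array none of the 43 did. Over all 16480 genes, 353 had a negative and 24 a positive interaction that passed without OVE replicate 3.

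The diabetic groups were then set against each other to ask what loss of D6 went with in diabetes. In OVE-D6 against OVE kidneys 0 of 43 genes passed limma's threshold, where 0.231% of all genes did. At an unadjusted p under 0.05, 11 genes were lower, where 8.13% of all genes were, and 10 of these 11 were replication genes, the other being Cdk1. The arrays did not overlap for 11 genes, all lower in OVE-D6, 8 of them replication genes, while 8.24% of all genes were separated in that direction. Estimates were negative for 41 of 43 genes, and the median was -0.32, against 0.01 over all genes, with -0.35 for replication and -0.32 for mitosis genes.

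Mcm6 read 6.04, 6.37 and 6.85 on the OVE-D6 arrays, against 7.10, 7.25 and 7.12 on the OVE arrays, without overlap. Its difference was -0.74 ± 0.20 (SE, n = 3 per group, limma adjusted p = 0.146). E2f1 read 6.60, 6.85 and 7.02 on the OVE-D6 arrays, against 7.54, 7.39 and 7.08 on the OVE arrays, with OVE-D6 replicate 3 just under OVE replicate 3. The difference of E2f1 was -0.51 ± 0.15 (adjusted p = 0.162), that of Chek1 -0.55 ± 0.16 (adjusted p = 0.162), that of Cdc6 -0.43 ± 0.14 (adjusted p = 0.203) and that of Ccne1 -0.36 ± 0.12 (adjusted p = 0.205), and none passed. Without OVE replicate 3, E2f1, Ccne1 and Mcm3 passed as lower, and the median was -0.46. In that fit 547 of the 16480 genes were called lower and 121 higher, against 30 and 8 with all arrays. Without OVE replicate 2 or OVE-D6 replicate 1 the median of the 43 genes was -0.23.

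Mki67 read 6.74, 6.89 and 7.68 on the OVE-D6 arrays, Cdk1 6.18, 6.33 and 7.08, and Top2a 5.74, 6.07 and 6.82. In each, replicate 3 lay within the OVE range and replicates 1 and 2 below it. OVE-D6 replicate 3 was the highest of its group for 38 of the 43 genes, including 22 of 24 mitosis genes, and for 35.4% of all tested genes. The median SD over the OVE-D6 arrays was 0.35 for mitosis genes and 0.12 for replication genes, against 0.10 for all tested genes. Mice of the other groups varied as well, with medians for mitosis and replication genes of 0.28 and 0.18 in OVE, 0.24 and 0.21 in D6 and 0.12 and 0.12 in FVB kidneys. Without OVE-D6 replicate 3 the median OVE-D6 minus OVE difference was -0.52 for mitosis and -0.39 for replication genes. Without OVE-D6 replicate 1 it was -0.22 and -0.31, and without OVE replicate 2 it was -0.19 and -0.26.

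Loss of D6 without diabetes gave no call either. In D6 against FVB kidneys 0 of 43 genes passed limma's threshold, where 0.0121% of all genes did, and 7 genes were higher at an unadjusted p under 0.05, where 2.15% of all genes were. The median was 0.19, against 0.00 over all genes, and 39 of 43 estimates were positive. The arrays were separated for 7 genes, all higher in D6, while 5.59% of all genes were separated that way. The smallest p-values belonged to Mcm2 (0.34 ± 0.11), Kif11 (0.44 ± 0.18), Cdt1 (0.43 ± 0.18), Cenpf (0.34 ± 0.14) and Cdc6 (0.33 ± 0.14), each with SE, n = 3 per group and a limma adjusted p of 1.0.

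Within the D6 group replicate 3 differed from the others. Mcm6 read 6.66, 6.61 and 5.91 on the D6 arrays, and Top2a 6.30, 6.23 and 5.39. The third value of each fell into the FVB range, and D6 replicate 3 was the lowest of its group for 40 of the 43 genes, against 33.1% of all tested genes. Without it the D6 minus FVB median was 0.35, and still 0 genes passed.

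OVE-D6 kidneys were last compared with FVB kidneys, the pair that differs in both diabetes and D6. By limma 0 of 43 genes passed, where 0.57% of all genes did, yet 20 were higher at an unadjusted p under 0.05, 16 of them mitosis genes, where 6.82% of all genes were. The arrays were separated for 26 genes, all higher in OVE-D6, while 11.1% of all genes were separated that way. The median was 0.35, with 0.26 for replication and 0.50 for mitosis genes, against -0.00 over all genes. Without OVE-D6 replicate 3 the mitosis median was 0.29 and the replication median 0.19. Anln read 5.65, 5.76 and 6.40 on the OVE-D6 arrays, all above the FVB arrays, and differed by 0.89 ± 0.21 (SE, n = 3 per group, limma adjusted p = 0.081). Mcm2 (0.46 ± 0.11, adjusted p = 0.0851), Kif11 (0.73 ± 0.18, adjusted p = 0.0859), Kif20a (0.65 ± 0.18, adjusted p = 0.127) and Kif23 (0.63 ± 0.17, adjusted p = 0.137) followed, and none passed.

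Set side by side, the group means of 32 of the 43 genes stood in the order OVE, OVE-D6, D6, FVB from high to low, as those of 1410 of all 16480 genes did. The comparisons share groups, so their differences are not independent of each other. OVE had the highest mean for 41 genes, as it did for 29.3% of all tested genes. FVB had the lowest mean for 38, for which no share over all genes was counted.

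The average of all 43 genes on each array, as a log2 difference from the FVB mean, was 0.21, 0.29 and 0.65 in OVE-D6 kidneys, 0.73, 0.91 and 0.49 in OVE kidneys, 0.34, 0.30 and -0.02 in D6 kidneys, and 0.02, 0.02 and -0.04 in FVB kidneys. The lowest OVE array therefore lay below the highest OVE-D6 array. OVE replicate 3 was the lowest OVE array for 36 of the 43 genes, against 30.5% of all tested genes. OVE replicate 2 was the highest for 22 of 24 mitosis genes, against 31.1% of all tested genes.

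Markers of other cell types are given here as values. Of 15 macrophage markers tested, 13 rose in OVE against FVB kidneys and 0 fell, where 4.9% of all tested genes rose. Lyz2 (lysozyme) led them, at 2.78 ± 0.34 (SE, limma adjusted p = 0.00155). In OVE-D6 against OVE kidneys 3 of the 15 fell, Lyz2, Mrc1 and Cd14, where 0.182% of all tested genes fell. Leaving out 1 array at a time gave 0 (without OVE-D6 replicate 1 or 2) to 14 (without OVE replicate 3). Over all tested genes 1 fell without OVE-D6 replicate 1 or 2 and 547 fell without OVE replicate 3, against 30 with all arrays. In OVE-D6 against D6 kidneys 4 of the 15 markers had positive estimates, and their median was -0.13. Their list averaged 0.07 to 0.37 above the FVB mean on the OVE-D6 arrays, 0.59 to 1.67 on the OVE arrays, 0.24 to 0.52 on the D6 arrays and -0.09 to 0.18 on the FVB arrays, with OVE replicate 3 the lowest of its group at 0.59. Of the 15 markers 1 had a mean under the background level.

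Tubular injury markers rose in 7 of 11 cases, and their list averaged 0.14, 0.22 and 0.83 on the OVE-D6 arrays, 1.01, 1.99 and 1.10 on the OVE arrays, 0.25, 0.01 and 0.04 on the D6 arrays and 0.03, 0.06 and -0.09 on the FVB arrays. OVE-D6 replicate 3 was the highest of its group for the mitosis genes, the injury markers and the macrophage markers. Among the OVE arrays, replicate 2 was the highest for the mitosis genes and the injury markers and replicate 1 for the macrophage markers, at 1.67 against 1.62, while replicate 3 was the lowest for the mitosis genes and the macrophage markers and replicate 1 for the injury markers. Fibroblast and matrix markers rose in 6 of 10 cases and averaged 0.15, 0.17 and 0.58 on the OVE-D6 arrays and 0.82, 1.16 and 0.55 on the OVE arrays. Of 7 T and B cell markers 1 rose (Cd3g), of 4 neutrophil markers 1 rose (Csf3r), both in OVE against FVB kidneys. The list medians were 0.27 for the T and B cell markers and -0.12 for the neutrophil markers. S100a9, Mpo and Elane had negative estimates. A mean under the background level was found for 3 of the 4 neutrophil markers and 2 of the 7 T and B cell markers. Of 8 endothelial markers 0 passed by limma, their median was -0.02, and 1 had an unadjusted p under 0.05. Of 3 erythroid markers 0 passed by limma, their median was -0.59, and 2 had an unadjusted p under 0.05. Over all tested genes 4.9% rose and 2.38% fell in OVE against FVB kidneys. At an unadjusted limma p under 0.05, 12.9% of them were higher and 11.2% lower. Of 8 proximal tubule markers 1 fell, Lrp2 by 0.35, and of 11 markers of other kidney segments 3 fell (Pvalb, Nphs1 and Slc12a3). The part of these cells in the division genes was not tested. Without OVE replicate 2 the risen macrophage markers numbered 5, the risen matrix markers 1 and the risen T and B cell and neutrophil markers 0 each. The risen injury markers numbered 4 without FVB replicate 3, and the fallen markers of other kidney segments 1 without OVE replicate 2 or FVB replicate 1 or 3. Lrp2 did not pass without OVE replicate 1 or 2 or without any single FVB array.

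**Figure D4:**
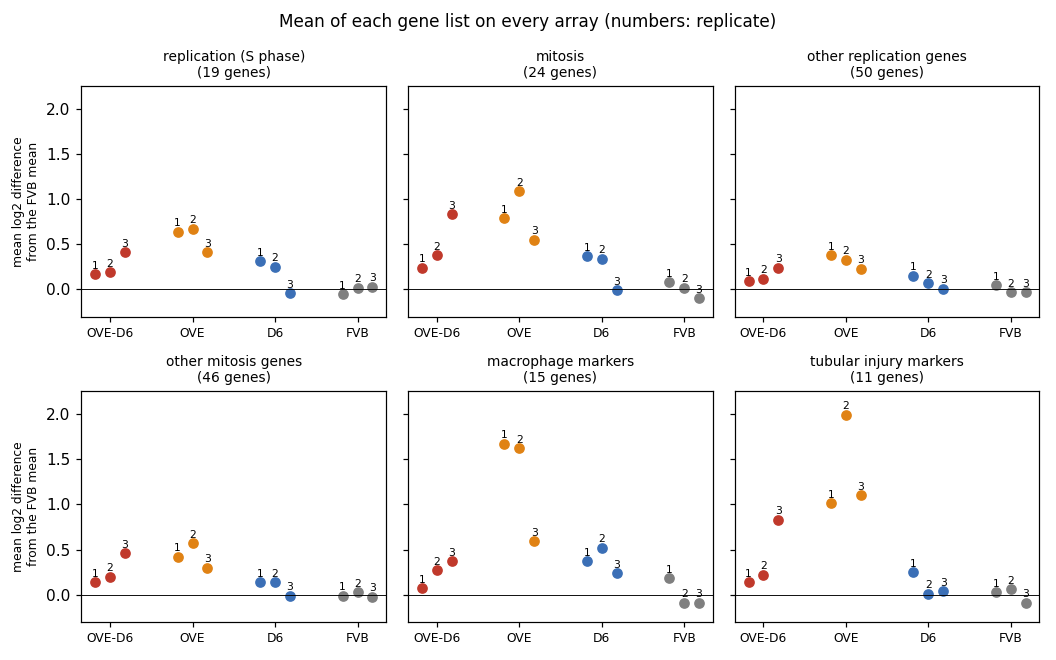
Mean log2 difference from the FVB mean (y axis) of 6 gene lists on each array by group (x axis), numbered by replicate. Replicate 3 is the highest OVE-D6 array in every panel, and OVE replicate 3 is the lowest OVE array in all panels but that of tubular injury markers, where replicate 1 is lowest at 1.01.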

How the data were processed

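Whole-kidney RNA of 12 mice, 100 ng each, was amplified with a whole-transcript kit and hybridised to Affymetrix mouse arrays, per the labels' protocols. The deposited values are on a log2 scale, with 1 value per probe set and array. How the authors summarised and normalised them is not given in the sources used here. No further scaling was applied. Of 35556 probe sets, 21789 had 1 symbol in the platform annotation, updated through the RefSeq gene table of GRCm38.p6, and the probe set with the highest mean stood for each gene. Genes above their array's 25th percentile on at least 3 arrays were tested with limma 3.58.1 in R 4.3.3: a group-means model over all 12 arrays, 6 contrasts, eBayes, and Benjamini-Hochberg adjustment at 0.05 over 16480 genes. A positive difference means higher in the group named first. The members, the other lists and the tests were chosen with earlier results of these data known, so no p-value was computed over a list. Values on every array were given for Mki67, Top2a, Mcm6, Ccna2, Cdk1, Pcna, E2f1 and the 8 genes with the smallest p in OVE against FVB. Differences with SE and adjusted p were given for the 8 called genes with the largest change, or the 5 with the smallest p where fewer than 5 passed, and up to 5 called genes were named from each other list. Other members' values were given to complete their class.

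Nothing in the labels says that same-numbered mice of different groups share a litter or day. Over the 18 such pairs of arrays, deviations from the group means correlated between -0.25 and 0.12, so the numbers were not used as pairs. No pair of arrays held identical values, and correlations within groups were 0.985 to 0.993. Other fits used another filter, scaling, choice of probe set, variance model or threshold, array weights, only the groups compared, a replicate block, or 1 array fewer. The fitting script was tested on simulated data. Python 3.11.15 made the tables (pandas 2.3.3) and the figures (matplotlib 3.10.9).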

Additional observations from a re-analysis of the deposited data

How the results depend on the processing

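The number of division genes called higher in OVE than in FVB kidneys, 28 of 43, was 23 to 32 under other scalings, probe set rules, variance models, array weights, no filter or a fit of only these groups, and 37 at an adjusted p of 0.10. Over all genes the count called higher was 325 to 903 under those settings, and none was made at 0.10. With the filter at the 50th percentile 20 of the division genes were tested and 16 called, where 704 of all 11716 genes were called higher. Leaving out 1 array gave 6 (without OVE replicate 2) to 33 (without OVE replicate 3), and a median difference of 0.59 to 0.83, with fewer arrays in each such fit. The labels do not say that the replicate numbers pair the arrays. With the replicate block 26 genes were called in this comparison and 0 in the other 5. For OVE-D6 against D6 the count of 0 became 1 under array weights, with only these groups fitted, and without OVE replicate 3, so that leaving out arrays gave 0 to 1, with a median of 0.03 to 0.23. For OVE-D6 against OVE it was 0 to 3 over the fits that left out an array, with a median of -0.46 to -0.23, and for the interaction 0 to 3, both counts highest without OVE replicate 3. For OVE-D6 against FVB it was 4 under array weights, 3 at an adjusted p of 0.10 and 0 to 1 over the fits that left out an array. For D6 against FVB it was 0 throughout, while the median of 0.19 was 0.17 to 0.35 over those fits. Over all genes, 808 were called higher in OVE than in FVB kidneys, and 325 with only these groups fitted, which leaves fewer arrays to estimate the spread. For OVE-D6 against D6 the calls over all genes were 30 higher and 17 lower, and 55 higher and 32 lower under array weights and 19 higher and 10 lower with the replicate block. For OVE-D6 against OVE they were 8 higher and 30 lower, and 9 higher and 82 lower under array weights and 2 higher and 5 lower with the replicate block, and 0 with only these groups fitted. Without OVE replicate 3 they were 121 higher and 547 lower, and the other fits that left out an array gave 1 to 15 lower. For the interaction they were 0, and 24 higher and 353 lower without OVE replicate 3. For OVE-D6 against FVB they were 54 higher and 40 lower, and 151 higher and 121 lower under array weights and 95 higher and 75 lower with a trended, robust variance. The cause was not tested. No called difference among the named genes changed sign under these alternatives.

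With 3 arrays a group, single calls depended on which arrays were fitted. Fewer division genes were called higher in OVE than in FVB kidneys without OVE replicate 2, and also without any single FVB array. More were called without OVE replicate 3. Each such fit also had fewer arrays, so these counts cannot separate a departing array from the loss of an array. Signal near background limits the folds of the dimmest genes: 13 of the 28 called genes had an FVB mean under 5.93, the level set from olfactory receptor genes. Ccnb1 and Ttk were not tested.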
